A study of Mus musculus with 9 samples.

Results

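The genes described here are 10 mouse genes whose transcripts stood far higher in muscle that received the decoy vector AAV-GFP-MBNL1∆ than in every other library: Trnp1, Themis3, Slc15a5, Actr3b, Slc30a2, 1700001O22Rik, Ankrd61, Cdk19, Rnf126 and Sra1. They are 10 of 55401 genes in the count tables, and all 10 were among the 18514 genes that had enough reads to be tested. The genes were chosen by their read counts, scaled to library size (CPM), because every AAV-GFP-MBNL1∆ library lay far above all other libraries, so the levels of AAV-GFP-MBNL1∆ against the other groups are given as a description, with no test. RNA came from gastrocnemius muscles of the calf, taken 7 weeks after they were injected in wild-type FVB mice aged 2 to 3 months. One group received AAV-GFP-MBNL1∆, an adeno-associated virus vector that carries green fluorescent protein and the construct MBNL1∆, named for the RNA-binding protein MBNL1, and the series title speaks of a decoy RNA-binding protein for expanded CUG repeats. A second group received AAV-GFP, the vector with green fluorescent protein, and the third received saline. Each group held 3 libraries, and the promoter of the vectors is not given in the sources used here.

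MBNL1 binds RNA and controls alternative splicing in muscle, and expanded CUG repeats in myotonic dystrophy sequester it. The mice here were wild type. The 10 genes form no single pathway. Trnp1 codes for a nuclear protein known from mouse brain, where it promotes self-renewal of neural progenitors, Cdk19 for a kinase of the Mediator complex, and Sra1 for a coactivator of steroid receptors that works both as an RNA and as a protein. Slc15a5 and Slc30a2 belong to transporter families for small peptides and for zinc. Actr3b codes for a form of the actin-related protein 3 that nucleates branched actin filaments, and Rnf126 for a ubiquitin ligase that acts with BAG6 on proteins that failed to reach a membrane. Themis3 belongs to the family of Themis, a signalling protein of developing T cells. Ankrd61 is named for its ankyrin repeats, and no role is given here for it or for 1700001O22Rik.

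Libraries held 44603618 to 76970849 counts assigned to genes. Muscle fibre transcripts (10 of 10 markers detected) summed to 160467 to 185507 CPM in AAV-GFP-MBNL1∆, 86594.7 to 144461 CPM in AAV-GFP and 147361 to 182341 CPM in saline. Mbnl1, whose counts do not separate mouse and vector transcripts, was at 711, 575 and 641 CPM in AAV-GFP-MBNL1∆, against 491, 356 and 461 CPM in AAV-GFP and 583, 593 and 445 CPM in saline. The libraries also differed in sex-linked transcripts. Xist, which silences an X chromosome in females, was at 0.0902, 0.0182 and 0.03 CPM in AAV-GFP-MBNL1∆, against 110, 136 and 106 CPM in AAV-GFP and 123, 130 and 105 CPM in saline. Ddx3y, on the Y chromosome, reached 82.7, 84.6 and 84.0 CPM in AAV-GFP-MBNL1∆, against 2.58, 0.673 and 0.487 CPM in AAV-GFP and 0.693, 0.409 and 0.624 CPM in saline. The labels used here give no sex, and sex and the decoy vector cannot be told apart in any comparison with AAV-GFP-MBNL1∆. Nothing in the labels says that libraries of a group came from separate animals, so the spread between them may be technical in part.

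Start regions of 5 of the 10 genes were examined, taken from the RefSeq promoter table for GRCm38.p6, the assembly of mm10. Of these, 4 are printed here because they show how much the start regions of these genes differ in base composition. Start regions of the other genes were not examined, whether or not the table holds them. Each window runs from 250 bases before a RefSeq start site to 50 bases after it, 5′ to 3′ on the strand of the gene. The Slc30a2 window lies wholly inside the gene as annotated here, which begins at 134343181. Its start site is thus an internal one, and its letters are not those of the region before the gene. Capitals mark E-boxes (CANNTG, N any base), the sites of basic helix-loop-helix factors such as MyoD. The windows are Trnp1 at chr4:133498501-133498800 (minus strand), Slc15a5 at chr6:138079867-138080166 (minus strand), Slc30a2 at chr4:134343216-134343515 (plus strand) and 1700001O22Rik at chr2:30803615-30803914 (minus strand, the first of 2 windows).
Trnp1: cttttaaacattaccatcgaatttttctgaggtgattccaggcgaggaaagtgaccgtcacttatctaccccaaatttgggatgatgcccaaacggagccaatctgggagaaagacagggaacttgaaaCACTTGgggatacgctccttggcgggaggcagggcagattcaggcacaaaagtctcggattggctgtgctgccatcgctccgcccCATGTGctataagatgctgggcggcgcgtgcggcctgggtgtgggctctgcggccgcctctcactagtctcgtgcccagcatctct
Slc15a5: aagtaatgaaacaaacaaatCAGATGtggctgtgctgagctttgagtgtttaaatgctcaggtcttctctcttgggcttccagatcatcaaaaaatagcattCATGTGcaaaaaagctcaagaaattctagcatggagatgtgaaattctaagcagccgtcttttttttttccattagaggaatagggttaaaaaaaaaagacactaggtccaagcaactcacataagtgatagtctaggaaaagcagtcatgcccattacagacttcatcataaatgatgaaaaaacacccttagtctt
Slc30a2: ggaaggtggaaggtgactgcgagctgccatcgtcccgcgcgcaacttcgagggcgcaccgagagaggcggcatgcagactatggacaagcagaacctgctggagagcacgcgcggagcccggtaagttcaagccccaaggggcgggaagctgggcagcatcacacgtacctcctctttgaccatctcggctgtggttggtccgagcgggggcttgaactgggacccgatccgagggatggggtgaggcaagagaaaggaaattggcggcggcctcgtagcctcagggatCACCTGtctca
1700001O22Rik: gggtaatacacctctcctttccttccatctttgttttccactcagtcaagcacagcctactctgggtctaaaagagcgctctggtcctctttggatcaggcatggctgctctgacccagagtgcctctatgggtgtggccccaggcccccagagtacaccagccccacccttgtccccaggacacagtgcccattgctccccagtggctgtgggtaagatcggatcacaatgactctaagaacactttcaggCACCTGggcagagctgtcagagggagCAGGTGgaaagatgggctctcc
The Slc15a5 window held 36.7% G and C and 1 CpG, and 5.33% of the 32851 windows in the table had a lower G and C content. The windows of Trnp1 (55.3% G and C, 16 CpG), Slc30a2 (63%, 23 CpG) and Rnf126 (66.3%, 30 CpG) lay above the table's medians of 52.7% and 7 CpG. The printed window of 1700001O22Rik had 56.3% G and C and 2 CpG. On either strand, E-boxes were found in 72.3% of all windows, in 2 places for Trnp1, 2 for Slc15a5, 1 for Slc30a2, 2 for the printed window of 1700001O22Rik and none for Rnf126. None of these windows held the TATA box TATAAA (13.6% of all windows) or the cAMP response element TGACGTCA (1.79%). The GC box CCGCCC (35.7% of all windows) occurred in Trnp1, Slc30a2 and Rnf126 and in the other window of 1700001O22Rik. AGAACA, the half-site of androgen and glucocorticoid receptors (19% of all windows), occurred in the printed window of 1700001O22Rik alone. Matches of different motifs did not overlap in these windows, and a match describes these letters only.

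In the transcripts, the letters MBNL proteins bind, TGCT or TGCC as well as CGCT or CGCC, counted on the sense strand of the longest protein-coding transcript, stood at a median of 18.2 per kb in the 10 genes. Over 14332 transcripts of tested genes the median was 15.4 per kb, with quartiles of 12.5 and 18.9. Trnp1, 1700001O22Rik and Rnf126 had 29.0, 28.7 and 27.5 per kb, at G and C contents of 65.2%, 61.7% and 62.7%. Slc30a2, Cdk19 and Sra1 lay below the median of all transcripts at 12.4, 13.6 and 14.7 per kb, and the 10 genes spanned both sides of that median.

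Trnp1, Themis3 and Slc15a5 showed the greatest log2 differences of the 10 genes. Trnp1 (ENSMUSG00000056596.8, chromosome 4, 133491100 to 133498550, minus strand) was at 24.9, 38.8 and 32.0 CPM in AAV-GFP-MBNL1∆ replicates 1 to 3, against 0.222, 0.0499 and 0.0443 CPM in AAV-GFP and 0.101, 0.0303 and 0.0910 CPM in saline. These levels came from 5924 reads in AAV-GFP-MBNL1∆, 21 in AAV-GFP and 16 in saline, so the low groups rest on few reads. The lowest AAV-GFP-MBNL1∆ library stood 112-fold above the highest other library, which was AAV-GFP 1. Its log2 difference was 8.69 (SE 0.51) against saline and 8.17 (SE 0.50) against AAV-GFP.

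Themis3 (ENSMUSG00000024105.3, chromosome 17, 66554505 to 66594621, minus strand) was at 8.81, 7.13 and 9.26 CPM in AAV-GFP-MBNL1∆, 0.119, 0.0125 and 0.0221 CPM in AAV-GFP and 0.0722, 0.0151 and 0.0390 CPM in saline. The read sums were 1596, 10 and 9 in these groups. The 3 AAV-GFP-MBNL1∆ libraries stood together, and the other 6 overlapped each other. Its log2 difference was 7.57 (SE 0.57) against saline and 7.29 (SE 0.57) against AAV-GFP.

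Slc15a5 (ENSMUSG00000044378.12, chromosome 6, 137983586 to 138079916, minus strand) was at 61.5, 69.4 and 70.7 CPM in AAV-GFP-MBNL1∆, 1.65, 0.224 and 0.553 CPM in AAV-GFP and 0.707, 0.485 and 0.767 CPM in saline. Its spread was small in the decoy group, 67.2 ± 4.98 CPM (SD, n = 3), and wide in AAV-GFP, 0.808 ± 0.744 CPM. Its log2 difference was 6.68 (SE 0.60) against saline and 6.37 (SE 0.59) against AAV-GFP. AAV-GFP 1 was the highest library outside the decoy group for Trnp1, Themis3, Slc15a5 and Actr3b.

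In 1700001O22Rik, Actr3b, Slc30a2 and Ankrd61 the lowest AAV-GFP-MBNL1∆ library stood 31.0-fold, 9.95-fold, 11.1-fold and 8.15-fold above the highest other library. 1700001O22Rik (ENSMUSG00000044320.14, chromosome 2, 30794769 to 30803661, minus strand) was at 27.6, 23.2 and 25.6 CPM in AAV-GFP-MBNL1∆, 0.697, 0.748 and 0.310 CPM in AAV-GFP and 0.563, 0.469 and 0.299 CPM in saline. Actr3b (ENSMUSG00000056367.14, chromosome 5, 25759997 to 25850688, plus strand) was at 24.5, 32.3 and 34.6 CPM in AAV-GFP-MBNL1∆, 2.46, 2.17 and 1.66 CPM in AAV-GFP and 1.54, 1.80 and 1.61 CPM in saline. For both genes the AAV-GFP and saline libraries overlapped. Slc30a2 (ENSMUSG00000028836.14, chromosome 4, 134343181 to 134354484, plus strand), which codes for the vesicular zinc transporter ZnT2, was at 19.8, 14.7 and 18.4 CPM in AAV-GFP-MBNL1∆, 1.305, 0.972 and 1.11 CPM in AAV-GFP and 0.794, 1.04 and 1.33 CPM in saline. Ankrd61 (ENSMUSG00000029607.14, chromosome 5, 143890741 to 143897685, minus strand) was the scarcest, at 2.00, 2.56 and 3.00 CPM in AAV-GFP-MBNL1∆, 0.237, 0.199 and 0.177 CPM in AAV-GFP and 0.245, 0.197 and 0.208 CPM in saline. The log2 differences against saline were 5.84 (SE 0.33) for 1700001O22Rik, 4.20 (SE 0.19) for Actr3b, 4.06 (SE 0.22) for Slc30a2 and 3.53 (SE 0.23) for Ankrd61. Against AAV-GFP they were 5.40 (SE 0.32), 3.85 (SE 0.19), 3.96 (SE 0.22) and 3.60 (SE 0.24) in the same genes. Ankrd61 shares 172 exon bases (7.38% of its own) with Eif2ak1 on the other strand, and since the strand setting of the counting is not given in the sources used here, reads there cannot be assigned to either gene. Eif2ak1 itself was at 60.0, 55.5 and 59.5 CPM in AAV-GFP-MBNL1∆, 48.9, 44.2 and 49.9 CPM in AAV-GFP and 52.2, 55.4 and 49.9 CPM in saline.

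Cdk19, Rnf126 and Sra1 were well expressed in all muscle and differed by about 2-fold to 3-fold. Cdk19 (ENSMUSG00000038481.13, chromosome 10, 40339564 to 40483818, plus strand) was at 71.5, 68.4 and 78.4 CPM in AAV-GFP-MBNL1∆, 22.4, 25.2 and 21.7 CPM in AAV-GFP and 22.5, 21.03 and 19.6 CPM in saline. Rnf126 (ENSMUSG00000035890.9, chromosome 10, 79758515 to 79766952, minus strand) was at 68.0, 65.1 and 74.6 CPM in AAV-GFP-MBNL1∆, 26.1, 22.6 and 27.9 CPM in AAV-GFP and 28.7, 32.5 and 29.9 CPM in saline. Sra1 (ENSMUSG00000006050.12, chromosome 18, 36666681 to 36670815, minus strand) was at 46.4, 44.8 and 43.5 CPM in AAV-GFP-MBNL1∆, 20.9, 22.9 and 22.1 CPM in AAV-GFP and 20.5, 19.3 and 20.3 CPM in saline. Sra1 had the narrowest spread of the 10 genes, with a coefficient of variation of 3.21% in AAV-GFP-MBNL1∆, 4.52% in AAV-GFP and 3.31% in saline. The ratio of the mean in AAV-GFP-MBNL1∆ to that in saline was 3.46 for Cdk19, 2.28 for Rnf126 and 2.24 for Sra1. Fgf22 and Cdk19os, which overlap Rnf126 and Cdk19 on the other strand, had at most 2 and 3 reads in any library.

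**Figure D1:**
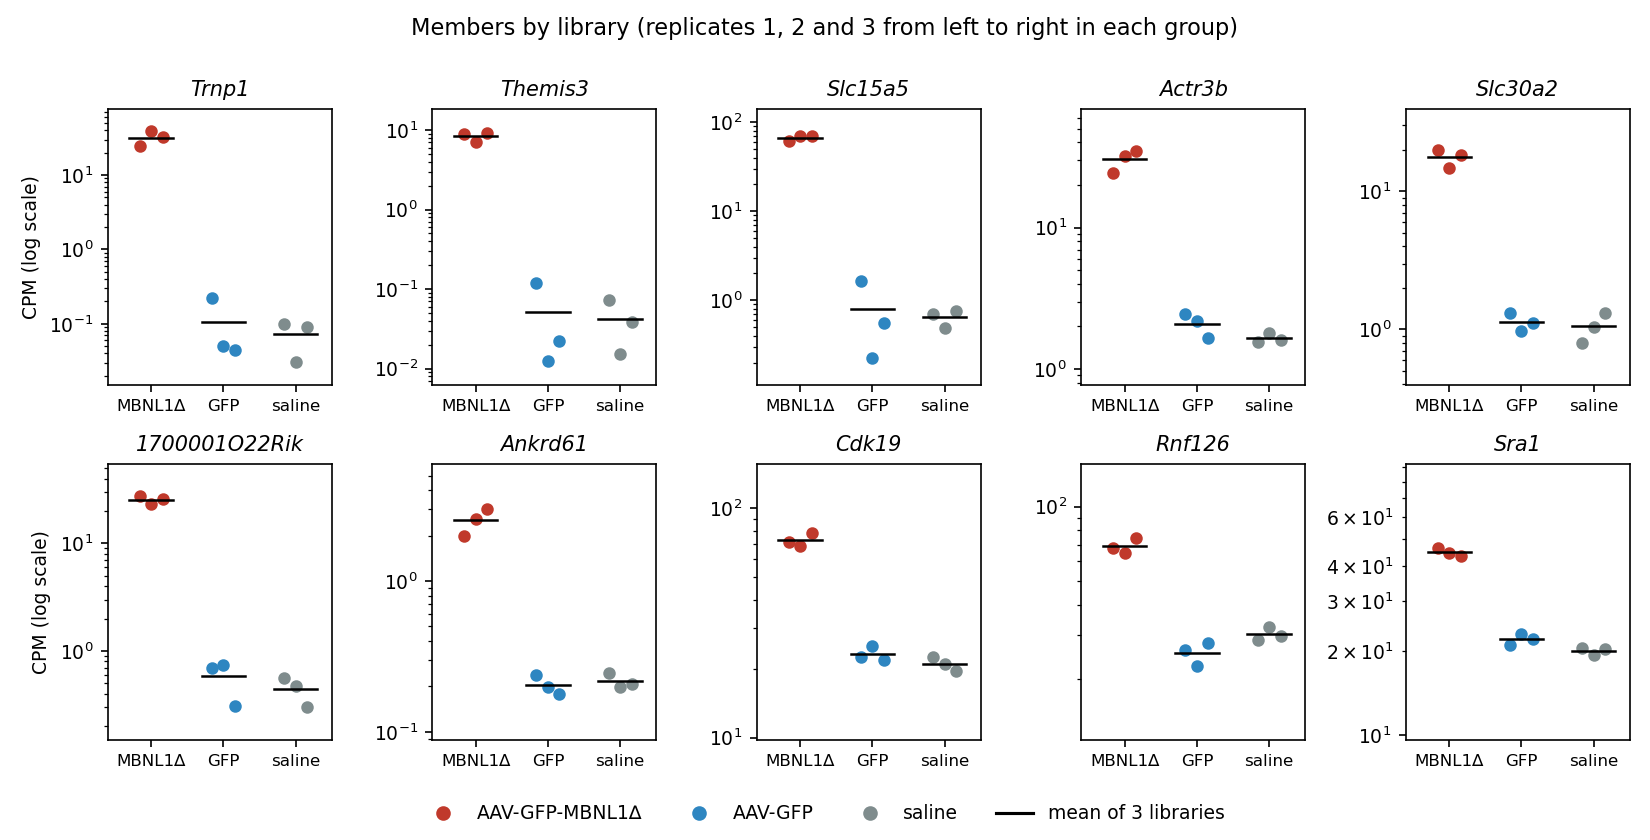
Each panel gives 1 gene in CPM on a log axis, with 1 point per library (AAV-GFP-MBNL1∆, AAV-GFP and saline, 3 each) and a line at the group mean. In each of the 10 panels the 3 AAV-GFP-MBNL1∆ points lie above the other 6, and AAV-GFP 1 is the highest of the 6 for Trnp1, Themis3, Slc15a5 and Actr3b.

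Scaled to exon length, the order of the levels changed with the group. In AAV-GFP-MBNL1∆, CPM per kb of exon averaged 40.6 ± 2.86 for Rnf126 (SD, n = 3), 21.8 ± 1.61 for Slc15a5, 19.7 ± 0.632 for Sra1, 19.3 ± 4.21 for Trnp1, 12.6 ± 2.18 for Actr3b and 12.4 ± 0.874 for Cdk19. Below these came 1700001O22Rik at 9.13 ± 0.784, Slc30a2 at 4.94 ± 0.738, Themis3 at 3.30 ± 0.441 and Ankrd61 at 1.08 ± 0.214. Slc15a5, Sra1 and Trnp1 did not differ beyond their spread, nor did Actr3b and Cdk19. In AAV-GFP this level was 14.98 ± 1.57 for Rnf126, 9.64 ± 0.436 for Sra1, 3.95 ± 0.316 for Cdk19 and 0.865 ± 0.167 for Actr3b, with the other 6 genes between 0.0201 ± 0.0231 (Themis3) and 0.316 ± 0.0469 (Slc30a2). In saline it was 17.8 ± 1.119 for Rnf126, 8.79 ± 0.291 for Sra1 and 3.60 ± 0.255 for Cdk19, with the other 7 genes between 0.0166 ± 0.0113 (Themis3) and 0.682 ± 0.0550 (Actr3b). Slc15a5 and Trnp1, among the 4 highest by this level in AAV-GFP-MBNL1∆, were at 0.211 ± 0.0482 and 0.0448 ± 0.0232 CPM per kb in saline.

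The gap between the lowest AAV-GFP-MBNL1∆ library and the highest other library, in log2(CPM + 0.05), places the 10 genes among all tested genes. It was 6.52 for Trnp1, 5.41 for Themis3, 5.18 for Slc15a5 and 4.86 for 1700001O22Rik, which ranked 2, 4, 5 and 8. It was 3.42 for Slc30a2, 3.29 for Actr3b and 2.79 for Ankrd61 (ranks 13, 15 and 25), and 1.44, 1.002 and 0.93 for Cdk19, Rnf126 and Sra1 (ranks 70, 97 and 118). All 3 AAV-GFP-MBNL1∆ libraries lay above all 6 others in 12.3% of the tested genes, a share that includes the 10 by choice and that is read here as background only. Besides the 10, 108 genes had a gap above that of Sra1, of which 60 were autosomal with a mean of at least 1 CPM and 5 were on the Y chromosome. St3gal5, Gm28783 and Gm15833 stood just above Sra1 (0.94, 0.93 and 0.93) and Gm47163, Pdp1 and 4930556M19Rik just below it (0.92, 0.92 and 0.91), so the 10 are a selection and not everything that shows this pattern.

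**Figure D2:**
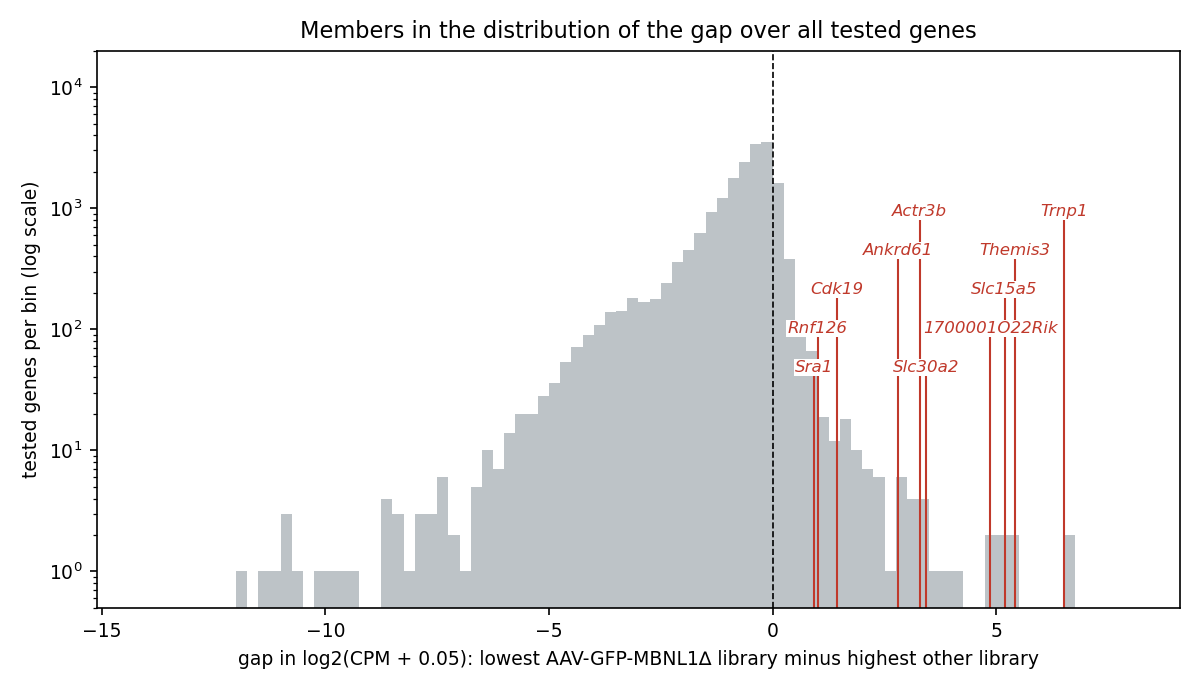
The histogram counts the 18514 tested genes (log axis) by the gap in log2(CPM + 0.05) between the lowest AAV-GFP-MBNL1∆ library and the highest other library, and red lines mark the 10 genes. The 10 lie between 0.93 (Sra1) and 6.52 (Trnp1), to the right of 0, where all AAV-GFP-MBNL1∆ libraries exceed the others.

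By the same gap over the 9 libraries, the genes most like the 10 were the Y-linked Kdm5d, Eif2s3y, Uty, Ddx3y and Gm29650 (gaps of 6.65, 5.44, 5.08, 4.97 and 4.22), then Gm8734 (3.88), Gm5190 (3.64) and C7 (3.46). The autosomal genes with a mean of at least 1 CPM that followed Gm8734 and C7 were Smox (3.24), Mchr1 (3.13), Amd-ps3 (3.09), Amd1 (2.95), Amd-ps4 (2.91) and AC144860.3 (2.91). C7, a component of the complement membrane attack complex, was at 22.1 ± 8.10 CPM in AAV-GFP-MBNL1∆ (SD, n = 3), against 1.05 ± 0.247 CPM in AAV-GFP and 0.942 ± 0.134 CPM in saline. Smox, the spermine oxidase, was at 762 ± 155 CPM in AAV-GFP-MBNL1∆, 54.8 ± 7.90 CPM in AAV-GFP and 56.1 ± 9.71 CPM in saline. Amd1, the decarboxylase that feeds polyamine synthesis, was at 1166 ± 197 CPM in AAV-GFP-MBNL1∆, 92.7 ± 26.4 CPM in AAV-GFP and 106 ± 14.4 CPM in saline. Amd-ps3 and Amd-ps4 are named as Amd pseudogenes and may share reads with Amd1, so their levels are uncertain.

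The log2 differences of the 10 genes can be set side by side for the comparisons, of which those with AAV-GFP-MBNL1∆ share its 3 libraries. Against saline they were 8.69 for Trnp1, 7.57 for Themis3, 6.68 for Slc15a5, 1.79 for Cdk19, 1.19 for Rnf126 and 1.16 for Sra1, and against AAV-GFP they were 8.17, 7.29, 6.37, 1.66, 1.44 and 1.03 in the same genes. The median over the 10 was 4.13 against saline and 3.91 against AAV-GFP, beside medians of 0.016 and -0.058 over all tested genes. The rule that chose the 10 used these contrasts. Over all genes, 4.76% were called higher against saline and 10.8% against AAV-GFP, at a p-value under 0.05 by edgeR's quasi-likelihood test after Benjamini-Hochberg adjustment, and nothing is read from the 10 beside these shares. The 882 genes called higher against saline lay between 286 (without AAV-GFP-MBNL1∆ 3) and 1933 (without AAV-GFP 2) with libraries left out in turn, and the 2006 against AAV-GFP between 556 (without AAV-GFP-MBNL1∆ 3) and 2380 (without AAV-GFP 3).

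AAV-GFP against saline asks whether the control vector moved the 10 genes. The choice of the genes did not set these groups against each other, but it required both to lie far below AAV-GFP-MBNL1∆, so a gene strongly raised by AAV-GFP could not be among them and the result is limited by that choice. None of the 10 passed, and 0% of all tested genes were called higher in that comparison. Over the 10 genes the median log2 fold change was 0.21, beside -0.014 over all tested genes. Rnf126 averaged 25.5 ± 2.67 CPM in AAV-GFP and 30.4 ± 1.91 CPM in saline (SD, n = 3 each), with all 3 AAV-GFP libraries below all 3 saline libraries (log2 fold change -0.25, SE 0.10, edgeR adjusted p = 0.192). Sra1 averaged 21.97 ± 0.994 CPM in AAV-GFP and 20.04 ± 0.664 CPM in saline, with all 3 AAV-GFP libraries above (0.13, SE 0.07, edgeR adjusted p = 0.27). The other 8 genes overlapped between the groups, and 27.1% of all tested genes did not overlap. Actr3b stood at 0.35 (SE 0.18, edgeR adjusted p = 0.268), 1700001O22Rik at 0.44 (SE 0.32, 0.41), Cdk19 at 0.13 (SE 0.09, 0.38), Slc30a2 at 0.093 (SE 0.21, 0.804) and Ankrd61 at -0.073 (SE 0.25, 0.909). Of the 10 genes, 1 (Rnf126) had an unadjusted p under 0.05 by edgeR, and neither DESeq2 nor limma-voom called any. Over all tested genes, 2889 higher and 1176 lower had an unadjusted p under 0.05, and DESeq2 called 1629 higher. The count called higher by edgeR was 5 without AAV-GFP 2 and 2907 without AAV-GFP 3, with 0 of the 10 genes among those called in either.

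**Figure D3:**
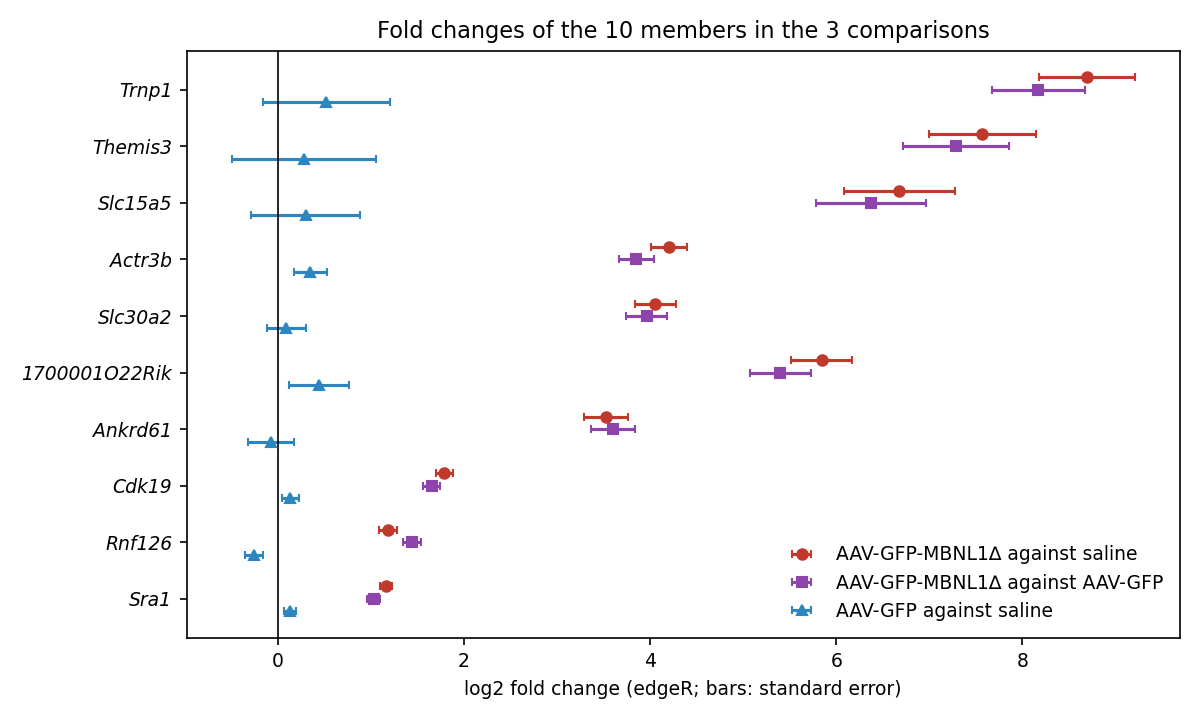
Points are log2 fold changes of the 10 genes from edgeR with bars of 1 standard error, for AAV-GFP-MBNL1∆ against saline (circles), AAV-GFP-MBNL1∆ against AAV-GFP (squares) and AAV-GFP against saline (triangles). The first 2 lie between 1.03 (Sra1) and 8.69 (Trnp1), and the triangles between -0.25 (Rnf126) and 0.52 (Trnp1).

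For Trnp1, Themis3 and Slc15a5, AAV-GFP 1 set the direction of AAV-GFP against saline. Trnp1 stood at 0.52 (SE 0.68, edgeR adjusted p = 0.652), Themis3 at 0.28 (SE 0.78, 0.84) and Slc15a5 at 0.30 (SE 0.58, 0.769). Without AAV-GFP 1 the values were -0.63, -1.302 and -0.87 (edgeR adjusted p = 0.536, 0.379 and 0.214), so no direction can be given. AAV-GFP 1 was also the control library with more Y-linked reads. Relative to the AAV-GFP-MBNL1∆ mean, AAV-GFP 1 held 3.08% of Ddx3y, 2.06% of Eif2s3y, 2.60% of Uty and 0.469% of Kdm5d. It held 0.697% of Trnp1, 1.41% of Themis3 and 2.45% of Slc15a5, where AAV-GFP 2 and 3 averaged 0.148%, 0.206% and 0.578% and saline 0.232%, 0.501% and 0.971%. The part of these Y-linked reads in the levels of the 10 genes was not tested.

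Genes that share a family, complex or pathway with the 10 were compared as well. Of 64 such genes 57 were tested. Against saline, AAV-GFP-MBNL1∆ had 3 higher and 5 lower (14%), beside 9.37% of all tested genes called in either direction. Against AAV-GFP it had 5 higher and 9 lower (24.6%), beside 21.1%. Over the 57, log2 fold changes had a median of 0.10 against saline and -0.19 against AAV-GFP, beside 0.016 and -0.058 over all tested genes. The 8 calls against saline became 5 without saline 1, saline 3, AAV-GFP 1, AAV-GFP-MBNL1∆ 1 or AAV-GFP-MBNL1∆ 2, 3 without saline 2 and 18 without AAV-GFP 2. The 14 against AAV-GFP became 9 without AAV-GFP 1 or AAV-GFP-MBNL1∆ 1, 28 without AAV-GFP 3 and 4 without AAV-GFP-MBNL1∆ 3.

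The relatives of Themis3 are genes of immune cells. Of its 2 relatives, Themis, of T cells, rose to 0.901 ± 0.457 CPM in AAV-GFP-MBNL1∆, against 0.0847 ± 0.0281 CPM in saline (log2 fold change 3.38, SE 0.77, edgeR adjusted p = 0.0327), and stood at 1.94 ± 1.52 CPM in AAV-GFP. Themis2, of B cells and macrophages, fell to 4.92 ± 1.68 CPM in AAV-GFP-MBNL1∆, against 24.4 ± 23.5 CPM in AAV-GFP (-2.31, SE 0.68, edgeR adjusted p = 0.0458), and was at 3.04 ± 0.218 CPM in saline. The call of Themis ended without any 1 saline library, AAV-GFP 1, or AAV-GFP-MBNL1∆ 1 or 2 (edgeR adjusted p up to 0.125), with no filter (0.0593) and with limma-voom (0.129). That of Themis2 was kept only without AAV-GFP 3 when libraries were left out in turn, and it ended with no filter (0.122), with limma-voom (0.121), with only the 2 groups compared (0.115) and with the replicate block (0.0809). T-cell markers, of which 8 of 8 were detected, summed to 6.08 to 15.1 CPM in AAV-GFP-MBNL1∆, 6.35 to 83.2 CPM in AAV-GFP and 0.863 to 1.22 CPM in saline. The part of T cells in the call of Themis and in the level of Themis3 was not tested.

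Among the peptide transporters of the SLC15 family, Slc15a4, which exports peptides and histidine from lysosomes of immune cells, rose against saline. It was at 14.8 ± 2.15 CPM in AAV-GFP-MBNL1∆ and 8.21 ± 0.281 CPM in saline (0.86, SE 0.21, edgeR adjusted p = 0.0387), a call that ended without any 1 saline or AAV-GFP-MBNL1∆ library or AAV-GFP 1 (edgeR adjusted p up to 0.133) and with the replicate block (0.0591). Slc15a3, a related lysosomal transporter, fell to 1.70 ± 0.426 CPM in AAV-GFP-MBNL1∆, against 10.3 ± 10.7 CPM in AAV-GFP (-2.60, SE 0.71, edgeR adjusted p = 0.0386), a call that was kept only without AAV-GFP 2 or 3 when libraries were left out in turn. It also ended with no filter (0.099), with limma-voom (0.103), with only the 2 groups compared (0.101) and with the replicate block (0.0682). Macrophage markers (7 of 8 detected, Itgam at 0) summed to 175 to 270 CPM in AAV-GFP-MBNL1∆, 213 to 1809 CPM in AAV-GFP and 99.5 to 123 CPM in saline, and their part in these calls was not tested. Slc15a2 did not pass in either comparison, and Slc15a1 had too few reads to be tested.

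For the partners of Actr3b and the relatives of Slc30a2, calls are set beside all tested genes, of which 9.37% were called against saline and 21.1% against AAV-GFP. Against AAV-GFP the called shares were 11.1% of the Arp2/3 list and 14.3% of the zinc list. Nothing is read from these counts in such short lists. Of 9 subunits of the Arp2/3 complex, 0 passed against saline and 1, Arpc1b, passed against AAV-GFP, at 23.3 ± 2.04 CPM in AAV-GFP-MBNL1∆, 63.8 ± 44.2 CPM in AAV-GFP and 23.8 ± 2.00 CPM in saline (-1.45, SE 0.41, edgeR adjusted p = 0.042). Its call was kept only without AAV-GFP 2 or 3 when libraries were left out in turn, and it ended with no filter (0.107), with limma-voom (0.0714), with only the 2 groups compared (0.108) and with the replicate block (0.0669). Of 27 zinc transporters and metallothioneins, 21 were tested and 0 passed against saline. Against AAV-GFP, Slc30a4, a zinc exporter into vesicles, rose to 32.0 ± 2.89 CPM in AAV-GFP-MBNL1∆, against 24.8 ± 1.42 CPM in AAV-GFP (0.37, SE 0.09, edgeR adjusted p = 0.0303). The zinc importers Slc39a8 and Slc39a10 fell to 0.534 ± 0.168 and 10.1 ± 1.68 CPM in AAV-GFP-MBNL1∆, against 1.15 ± 0.0497 and 15.8 ± 2.12 CPM in AAV-GFP (log2 fold changes of -1.10, SE 0.23, and -0.65, SE 0.14, with edgeR adjusted p of 0.0165 and 0.0181). The calls of Slc39a8 and Slc39a10 ended without AAV-GFP-MBNL1∆ 3 (0.0789 and 0.0573), and that of Slc30a4 without saline 1, AAV-GFP 1, AAV-GFP-MBNL1∆ 1 or AAV-GFP-MBNL1∆ 3 (up to 0.115). With only the 2 groups compared all 3 of these calls ended (0.0623 for Slc39a8, 0.0628 for Slc39a10 and 0.0641 for Slc30a4), and that of Slc30a4 ended with the replicate block (0.0526).

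In the Mediator kinase module, Cdk19 was higher with the decoy vector while its partners were lower or did not pass. Cdk8, the kinase that takes the same place as Cdk19 in the module, was at 246 ± 37.3 CPM in AAV-GFP-MBNL1∆, 381 ± 67.4 CPM in AAV-GFP and 448 ± 132 CPM in saline. It fell against saline by a log2 fold change of -0.86 (SE 0.23, edgeR adjusted p = 0.0476), a call that ended without any 1 saline or AAV-GFP-MBNL1∆ library or AAV-GFP 1 (up to 0.166), with limma-voom (0.0513) and with the replicate block (0.0755). Med13l, a subunit that links the module to Mediator, fell to 29.3 ± 0.445 CPM in AAV-GFP-MBNL1∆, against 41.8 ± 1.10 CPM in saline (-0.51, SE 0.07, edgeR adjusted p = 0.00404), and was at 37.7 ± 2.51 CPM in AAV-GFP (-0.36, SE 0.07, edgeR adjusted p = 0.012). Its call against saline was kept without any 1 of the 9 libraries, and its call against AAV-GFP ended without AAV-GFP-MBNL1∆ 3 (0.0541) and with only the 2 groups compared (0.0629). Of the 6 other subunits 2 passed against saline and 1 against AAV-GFP, all lower, beside 4.6% and 10.3% of all tested genes called lower.

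Partners of Rnf126 and Sra1 moved by less than 2-fold. With Rnf126, 3 of 5 genes of the BAG6 pathway rose against AAV-GFP, beside 10.8% of all tested genes, and 0 passed against saline. Bag6 itself was at 180 ± 19.9 CPM in AAV-GFP-MBNL1∆, 117 ± 13.8 CPM in AAV-GFP and 140 ± 6.87 CPM in saline (0.62 against AAV-GFP, SE 0.12, edgeR adjusted p = 0.0126). Its partners Ubl4a and Sgta rose against AAV-GFP by 0.65 (SE 0.11, edgeR adjusted p = 0.00779) and 0.38 (SE 0.08, edgeR adjusted p = 0.0192). Ubl4a averaged 91.7 CPM in AAV-GFP-MBNL1∆, 58.6 CPM in AAV-GFP and 69.5 CPM in saline, and Sgta 70.3, 54.1 and 59.2 CPM. For Bag6, Ubl4a and Sgta the mean in AAV-GFP was thus below that in saline. The calls of Bag6 and Sgta ended with only the 2 groups compared (0.0501 and 0.0669). The call of Bag6 also ended without AAV-GFP-MBNL1∆ 3 (0.062), that of Sgta without AAV-GFP 1, AAV-GFP-MBNL1∆ 1 or AAV-GFP-MBNL1∆ 3 (up to 0.0836), while that of Ubl4a was kept without any 1 of the 9 libraries. With Sra1, 3 of 10 partners passed in both comparisons, beside 9.37% of all tested genes against saline and 21.1% against AAV-GFP. Myod1, the muscle transcription factor that Sra1 coactivates, rose to 40.4 ± 4.27 CPM in AAV-GFP-MBNL1∆, against 27.4 ± 1.03 CPM in AAV-GFP and 28.0 ± 2.09 CPM in saline (0.53 against saline, SE 0.09, edgeR adjusted p = 0.0126, and 0.0652 without saline 2). Ddx17, an RNA helicase that works with Sra1 and MyoD, fell to 102 ± 7.70 CPM in AAV-GFP-MBNL1∆, against 146 ± 7.32 CPM in AAV-GFP and 149 ± 6.83 CPM in saline (-0.55 against saline, SE 0.09, edgeR adjusted p = 0.0088). Ncoa2, a steroid receptor coactivator, fell to 27.3 ± 1.36 CPM in AAV-GFP-MBNL1∆, against 35.8 ± 0.944 CPM in AAV-GFP and 35.9 ± 0.182 CPM in saline (-0.40 against saline, SE 0.07, edgeR adjusted p = 0.00852). Tmf1, after which Trnp1 is named, fell to 27.1 ± 0.551 CPM in AAV-GFP-MBNL1∆, against 35.1 ± 1.35 CPM in AAV-GFP and 36.5 ± 2.26 CPM in saline (-0.43 against saline, SE 0.07, edgeR adjusted p = 0.00911, and 0.0527 without saline 2). Its call against AAV-GFP ended without AAV-GFP-MBNL1∆ 3 (0.0573).

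**Figure D4:**
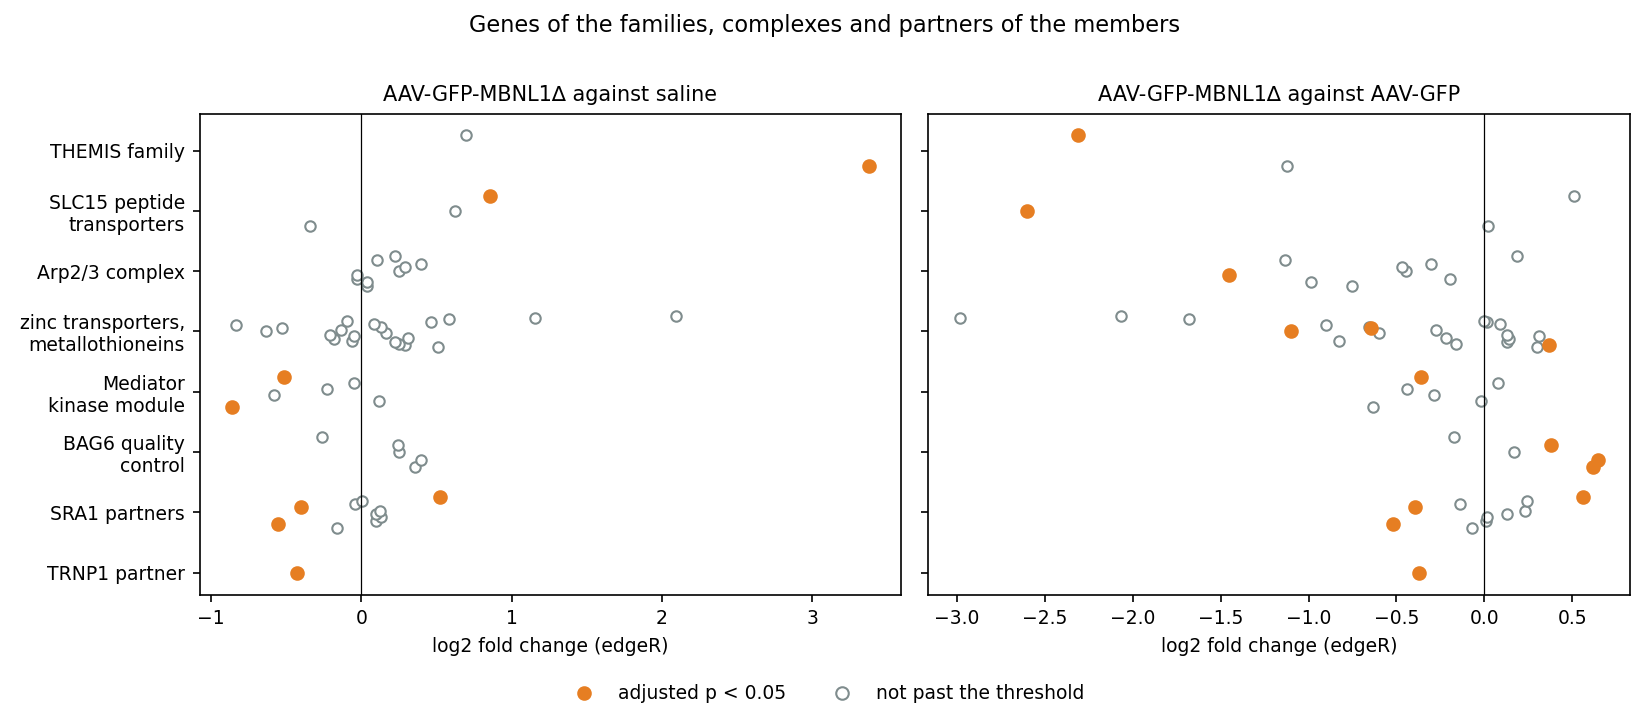
Each point is the log2 fold change of 1 of the 57 tested genes that share a family, complex or pathway with the 10, with AAV-GFP-MBNL1∆ against saline on the left and against AAV-GFP on the right, and filled points passed an adjusted p of 0.05. Against saline 3 filled points lie above 0 and 5 below, and against AAV-GFP 5 above and 9 below.

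On the chromosomes, most of the genes beside the 10 did not share the difference. Trnp1 and Slc30a2 lie on chromosome 4, Actr3b and Ankrd61 on chromosome 5 and Cdk19 and Rnf126 on chromosome 10. The closest pair is Trnp1 (133491100 to 133498550) and Slc30a2 (134343181 to 134354484). The 5 nearest tested genes on each side were taken with the 10 themselves left out, which gave 100 distinct neighbours. Of these, AAV-GFP-MBNL1∆ had 14 higher and 0 lower against saline, beside 4.76% of all tested genes called higher and 4.6% lower. Against AAV-GFP 27 were higher and 6 lower, beside 10.8% and 10.3%. Over the neighbours, log2 fold changes had a median of 0.091 against saline and 0.14 against AAV-GFP, beside 0.016 and -0.058 over all tested genes. The 14 became 6 without saline 1 or 2, 8 without saline 3 or AAV-GFP-MBNL1∆ 2, 26 without AAV-GFP 2 and 5 without AAV-GFP-MBNL1∆ 3. The 33 called against AAV-GFP became 20 without saline 1, 18 without saline 2, AAV-GFP 1 or AAV-GFP-MBNL1∆ 2, 17 without AAV-GFP-MBNL1∆ 1 and 12 without AAV-GFP-MBNL1∆ 3.

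Amd1, the nearest tested gene below Cdk19 on chromosome 10 (at -116.9 kb from midpoint to midpoint, a minus sign marking the lower coordinate), differed more than Cdk19 itself. It rose by 3.45 against saline (SE 0.25, edgeR adjusted p = 0.000263) and by 3.65 against AAV-GFP (SE 0.25, edgeR adjusted p = 0.000228). Slc16a10, a transporter of aromatic amino acids at -323.8 kb from Cdk19, rose to 78.9 ± 4.84 CPM in AAV-GFP-MBNL1∆, against 44.4 ± 4.20 CPM in AAV-GFP and 47.4 ± 4.78 CPM in saline (0.73 against saline, SE 0.10, edgeR adjusted p = 0.00497). Rab12, a small GTPase of membrane traffic at -67.4 kb from Themis3, rose to 326 ± 20.8 CPM in AAV-GFP-MBNL1∆, against 119 ± 19.6 CPM in AAV-GFP and 141 ± 11.3 CPM in saline (1.21 against saline, SE 0.14, edgeR adjusted p = 0.00181). Mgst1, a glutathione transferase of membranes 116.8 kb from Slc15a5, rose to 43.3 ± 2.25 CPM in AAV-GFP-MBNL1∆, against 20.6 ± 5.67 CPM in AAV-GFP and 14.2 ± 1.34 CPM in saline (1.61 against saline, SE 0.17, edgeR adjusted p = 0.00142). These 4 genes kept their calls in both comparisons without any 1 of the 9 libraries.

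Around Ankrd61, 4 of 10 neighbours rose against saline, beside 4.76% of all tested genes. Among them were Aimp2, a scaffold of the aminoacyl-tRNA synthetase complex (0.92, SE 0.19, edgeR adjusted p = 0.0191), the mismatch repair gene Pms2 (0.74, SE 0.13, edgeR adjusted p = 0.0122) and the small GTPase Rac1 (0.56, SE 0.09, edgeR adjusted p = 0.00911). Aimp2 lost its call without any 1 saline library or AAV-GFP-MBNL1∆ 2 or 3 (up to 0.0905), Pms2 without saline 1 or 2 (up to 0.0605) and Rac1 without AAV-GFP-MBNL1∆ 3 (0.0509). Beside Rnf126, the ubiquitin-conjugating enzyme Cdc34 rose by 0.51 (SE 0.12, edgeR adjusted p = 0.0371) and E130317F20Rik by 0.83 (SE 0.17, edgeR adjusted p = 0.0191). Apbb3, whose midpoint lies 6.5 kb from that of Sra1, rose by 0.53 (SE 0.12, edgeR adjusted p = 0.0333), and 1700096K18Rik, at -274.6 kb from Actr3b, by 0.72 (SE 0.15, edgeR adjusted p = 0.0235). The calls of Cdc34, E130317F20Rik, Apbb3 and 1700096K18Rik against saline each ended when single libraries were left out, with edgeR adjusted p up to 0.142, 0.0873, 0.131 and 0.104. Those of Cdc34 and Apbb3 also ended with upper-quartile scaling (0.099 and 0.07), and that of Cdc34 with the replicate block (0.0532). 2900005J15Rik, at -699.8 kb from Actr3b, fell against AAV-GFP by a log2 fold change of -1.74 (SE 0.31, edgeR adjusted p = 0.00965) and did not pass against saline (-1.05, SE 0.32, edgeR adjusted p = 0.0728). No neighbour of Slc30a2 or 1700001O22Rik passed against saline.

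**Figure D5:**
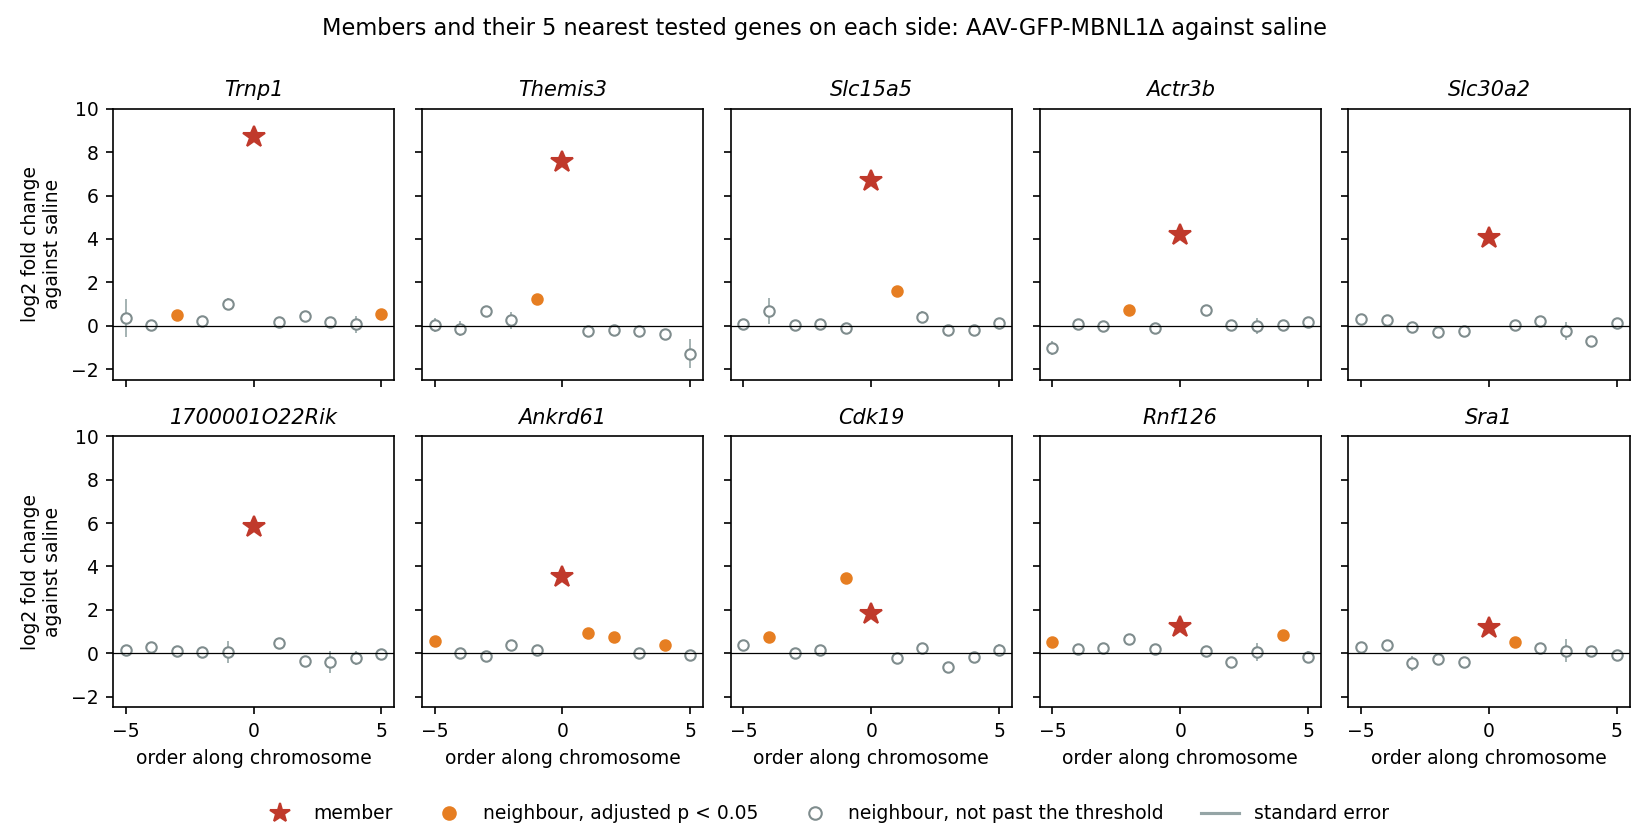
Each panel gives the log2 fold change of AAV-GFP-MBNL1∆ against saline for 1 of the 10 genes (star) and its 5 nearest tested genes on each side in chromosome order, with bars of 1 standard error on the neighbours, and filled points passed an adjusted p of 0.05. In 9 panels the star is the highest point, from 1.16 (Sra1) to 8.69 (Trnp1), and in the Cdk19 panel Amd1 at 3.45 lies above Cdk19 at 1.79.

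Marker sums of male germ cells, brain neurons and the small intestine reached at most 1.22 CPM in any library. Outside the decoy group Trnp1 and Themis3 reached at most 0.222 and 0.119 CPM, so not all of these sums are low beside them. Markers of male germ cells (5 of 7 detected, with Tnp1 and Tex101 at 0) summed to 0.0364 to 0.0902 CPM in AAV-GFP-MBNL1∆, 0.0886 to 1.22 CPM in AAV-GFP and 0 to 0.0289 CPM in saline. Neuronal markers of the brain (5 of 6 detected, Neurod6 at 0) summed to 0.434 to 0.707 CPM, 0.415 to 0.773 CPM and 0.363 to 0.559 CPM in the same order of groups. Markers of the small intestine (4 of 6 detected, Fabp2 and Alpi at 0) summed to at most 0.271, 0.698 and 0.26 CPM. Among resident cells of muscle, adipocyte markers (6 of 6 detected) had median log2 fold changes of -2.15 against saline and -2.05 against AAV-GFP. Of these markers 2 and 3 were called lower, beside 4.6% and 10.3% of all tested genes. The adipocyte markers summed to 153 to 170 CPM in AAV-GFP-MBNL1∆, 239 to 293 CPM in AAV-GFP and 229 to 323 CPM in saline. Satellite cell markers (5 of 6 detected, Cdh15 at 0) summed to 4031 to 4441 CPM, 3115 to 3825 CPM and 3118 to 3223 CPM. Of the 5 tested, 0 were called higher against saline and 1 against AAV-GFP, beside 4.76% and 10.8% of all tested genes. This list holds the desmin gene Des, and the sum is not split by gene here, so it is not read as a measure of satellite cells. Fibroblast markers (6 of 6) summed to 1358 to 1625 CPM in AAV-GFP-MBNL1∆, 1253 to 2313 CPM in AAV-GFP and 1122 to 1321 CPM in saline. Schwann cell markers (6 of 6) summed to 130 to 177, 139 to 209 and 175 to 221 CPM in these groups, and endothelial markers (6 of 6) to 265 to 323, 246 to 354 and 366 to 401 CPM. B-cell markers (5 of 6 detected, Mzb1 at 0) summed to 30.9 to 95.1 CPM in AAV-GFP-MBNL1∆, 2.86 to 903 CPM in AAV-GFP and 0.273 to 0.91 CPM in saline. Why Itgam, Cdh15 and Mzb1 had no reads in any library was not tested, and this is not read as absence from the muscle. In whole muscle, more cells of a type and more RNA per cell cannot be told apart, and the part of the adipocyte, satellite cell and immune markers in the levels of the 10 genes was not tested.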

How the data were processed

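The deposited tables hold raw read counts, 1 table a library. Trizol RNA went through DNase and, at an input of 250 ng, into a KAPA mRNA kit, per the labels' protocols. Per the submitters' processing notes, cutadapt 2.10, STAR 2.7.5a, HTSeq 0.12.4, DESeq2 1.30.0 and mm10 were used, and the sources used here give neither annotation release nor strand setting. The 5 rows that name no gene (16.8% to 18.3% of reads) were left out. Names and coordinates came from GENCODE M21 (GRCm38), where 55141 of 55401 identifiers matched.

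A single model with 1 mean per group held all 9 libraries (edgeR 4.0.16, R 4.3.3; TMM, expression filter, robust quasi-likelihood F test; biological coefficient of variation 0.232, 6 residual degrees of freedom). The model was also run on simulated counts with the same spread setting in every gene and group. In these libraries the groups differ in spread, so that run does not show how the model deals with unequal spread. Benjamini-Hochberg adjustment ran over 18514 genes in each of 3 comparisons, with 0.05 as the threshold. The standard error is the log2 fold change divided by the square root of F. CPM are counts scaled to TMM-adjusted library size. Promoters came from RefSeq (GRCm38.p6).

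The members and lists were chosen with earlier results of these data known. The rule names all 10 members, the called genes of each family list (up to 4 by p-value, otherwise the 2 of smallest p), up to 12 called neighbours by p-value and the 8 genes of greatest gap, also among autosomal genes of at least 1 CPM; genes beside the lowest member and overlapping genes were named after their values were seen. Alternatives were other scalings and filters, DESeq2 1.42.0, limma-voom (limma 3.58.1), 2-group fits, the replicate block and leaving out each library.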

Additional observations from a re-analysis of the deposited data

How the results depend on the processing

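All 3 AAV-GFP-MBNL1∆ libraries lay above the others for all 10 genes with DESeq2 size factors, upper-quartile scaling, CPM without TMM factors and without each library in turn, as the choice of genes fixes. In AAV-GFP against saline 0 of the 10 genes were called under every alternative, with the replicate block too. There limma-voom turned Themis3 to -0.048 and Slc15a5 to -0.17, both short of the threshold. Over the main fit and all alternatives, left-out libraries among them, the log2 fold change in this comparison lay between -0.63 and 0.94 for Trnp1, -1.30 and 0.85 for Themis3, -0.87 and 0.79 for Slc15a5, -0.079 and 0.29 for Slc30a2 and -0.19 and 0.018 for Ankrd61. That of Arpc1b in AAV-GFP-MBNL1∆ against saline lay between -0.084 and 0.044 over the same settings. Calls of genes that share a family, complex or pathway with the 10 were 15 against saline with DESeq2 and 23 with only the 2 groups compared, which gave 5 against AAV-GFP. Neighbour calls with only the 2 groups compared were 30 against saline and 16 against AAV-GFP. Over all genes, those called higher in AAV-GFP against saline numbered 1629 with DESeq2 and 99 with the replicate block. In AAV-GFP-MBNL1∆ against saline they numbered 1600 with DESeq2 and 2303 with only the 2 groups compared, and against AAV-GFP 788 with only the 2 groups. The cause of these shifts was not tested. Leaving out 1 library gave 3 to 18 and 4 to 28 calls for these genes of shared family, complex or pathway (against saline and against AAV-GFP), 5 to 26 and 12 to 47 for neighbours, and over all genes 286 to 1933 and 556 to 2380, with 0 to 2907 for AAV-GFP against saline. Same-numbered libraries correlated in their deviations at -0.076 to 0.46, and the labels name no shared animal, so the block is not read as a pairing. Depth limits Trnp1 and Themis3 outside the decoy group, at 9 to 21 reads a group.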
